A study of Mus musculus with 14 samples.

Results

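The Fc receptor genes studied here are 7 mouse genes that encode receptors, or receptor subunits, of the immunoglobulin Fc receptor family: Fcgr1, Fcgr2b, Fcgr3, Fcgr4, Fcer1g, Fcrls and Fcgrt. They were chosen by gene symbol, with earlier results of these data known, and are 7 of the 33459 gene IDs in the count table. Their mRNA was compared between Fhl2 knockout (KO) and wild-type (WT) mice in gonadal white adipose tissue (gWAT), the visceral fat around the gonads, and in heart. All groups were C57BL/6 mice of 21 weeks that had been on a high-fat diet for 8 weeks: 3 KO and 3 WT gWAT libraries (replicates 1, 3 and 4 of each genotype), and 4 KO and 4 WT heart libraries (replicates 1 to 4). Every group, the WT controls included, had the high-fat diet, so no group shows the genes on another diet. Fhl2 encodes a scaffold protein built of LIM domains, which acts with transcription factors and at the cytoskeleton. The labels do not say which part of Fhl2 was removed, nor whether the libraries come from different animals, so a p-value here covers only the spread between libraries, which may be technical.

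Fc receptors bind the constant part of antibodies and link antibody-coated targets to the cells that take them up. In the mouse, the activating IgG receptors Fcgr1 (high affinity), Fcgr3 and Fcgr4 sit in the membrane together with the Fc receptor gamma chain, the product of Fcer1g, whose cytoplasmic activation motif (ITAM) recruits the kinase Syk. Fcgr2b is the inhibitory IgG receptor: its cytoplasmic ITIM motif recruits phosphatases such as SHIP1 (Inpp5d), and the balance between activating receptors and Fcgr2b sets how strongly macrophages respond to immune complexes. Fcgrt encodes the heavy chain of the neonatal Fc receptor FcRn, which pairs with B2m and returns endocytosed IgG and albumin to the circulation, and Fcrls encodes an Fc receptor-like protein best known as a marker of microglia. In adipose tissue and heart, most of the IgG receptors are carried by macrophages, while FcRn is also found in endothelial and other cells.

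The gWAT libraries held 15105019 to 16040188 counted reads and the heart libraries 10835092 to 13272412. Fhl2 was lower in the KO libraries of both tissues, with 0.390 ± 0.115 CPM (counts relative to the TMM-scaled total of each library) in KO gWAT, against 5.43 ± 0.980 CPM in WT gWAT (SD, n = 3 each), and 34.0 ± 3.89 CPM in KO heart, against 1197 ± 176 CPM in WT heart (SD, n = 4 each). The gWAT libraries were high in the adipocyte marker Adipoq (3803 ± 346 CPM in KO and 2212 ± 473 CPM in WT gWAT), and the 5 cardiomyocyte markers summed to 28285 to 32994 CPM in KO heart and to 28238 to 31963 CPM in WT heart. Replicate 1 of WT gWAT stood apart from WT replicates 3 and 4: for Fcgr3, Fcgr4 and Fcer1g it lay close to the KO libraries, and without it the number of genes called in gWAT was 2908, against 834 with it. Results that rest on this library are therefore given with and without it. In bulk tissue, fewer cells of a type and less RNA per cell cannot be told apart.

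In the GRCm38 build, 4 of the genes lie next to each other on chromosome 1, in the order Fcgr2b (ENSMUSG00000026656, chr1:170958617-170976547, minus strand), Fcgr4 (ENSMUSG00000059089, chr1:171018920-171029761, plus strand), Fcgr3 (ENSMUSG00000059498, chr1:171051174-171064935, minus strand) and Fcer1g (ENSMUSG00000058715, chr1:171229572-171234365, minus strand). Fcgr1 (ENSMUSG00000015947, chr3:96282909-96293969, minus strand) and Fcrls (ENSMUSG00000015852, chr3:87250758-87263738, minus strand) lie on chromosome 3, and Fcgrt (ENSMUSG00000003420, chr7:45092990-45103851, minus strand) on chromosome 7. All 7 are protein-coding. Fcgr2b and Fcgr3 share sequence: of the 50-base windows of the Fcgr3 exons, 166 of 1733 (9.58%) also occur in Fcgr2b, which is 2.92% of the Fcgr2b windows. With any other annotated gene, 395 of the 5685 Fcgr2b windows (6.95%) are shared. Counting can therefore move or drop reads of these 2 genes and their values carry that uncertainty. The other 5 genes share no such window with another annotated gene. The antisense gene Gm38204 overlaps 155 exonic bases of Fcgr2b and held 0 reads.

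Promoter windows of 250 bases before to 50 bases after the RefSeq start (GRCm38.p6) were found for 7 of 7 genes, with a pair of windows for Fcgr3. They are shown for 3 activating receptors and the inhibitory receptor, because these genes encode the IgG receptors of opposite function and the macrophage factor PU.1 (Spi1), which is known to bind Fc receptor promoters, was itself measured. The letters GAGGAA, the core of a PU.1-type motif, were searched on both strands (TTCCTC on the other), together with TTCNNNGAA, the palindromic form of an interferon gamma-activated (GAS) site. Matches are in capitals, and each sequence is written 5′ to 3′ on the strand of its gene.
Fcgr1 (chr3:96293920-96294219, minus strand): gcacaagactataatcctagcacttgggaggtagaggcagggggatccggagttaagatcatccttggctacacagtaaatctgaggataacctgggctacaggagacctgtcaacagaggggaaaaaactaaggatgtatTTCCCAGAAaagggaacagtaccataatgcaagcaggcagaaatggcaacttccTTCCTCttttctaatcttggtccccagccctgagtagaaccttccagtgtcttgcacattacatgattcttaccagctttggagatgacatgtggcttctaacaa
Fcgr3 (chr1:171059354-171059653, minus strand): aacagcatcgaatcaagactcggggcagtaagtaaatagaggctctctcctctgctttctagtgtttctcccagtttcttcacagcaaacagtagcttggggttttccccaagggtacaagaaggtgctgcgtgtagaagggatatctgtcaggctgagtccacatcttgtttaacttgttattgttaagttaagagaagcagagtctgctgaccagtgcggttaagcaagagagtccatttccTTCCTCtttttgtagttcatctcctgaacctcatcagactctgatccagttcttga
Fcgr4 (chr1:171018676-171018975, plus strand): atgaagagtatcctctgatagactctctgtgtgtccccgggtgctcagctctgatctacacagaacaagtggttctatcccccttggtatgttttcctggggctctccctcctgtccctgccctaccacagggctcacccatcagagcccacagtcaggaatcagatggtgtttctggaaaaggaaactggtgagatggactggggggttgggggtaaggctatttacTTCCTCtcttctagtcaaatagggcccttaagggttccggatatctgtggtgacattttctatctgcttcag
Fcgr2b (chr1:170976022-170976321, minus strand): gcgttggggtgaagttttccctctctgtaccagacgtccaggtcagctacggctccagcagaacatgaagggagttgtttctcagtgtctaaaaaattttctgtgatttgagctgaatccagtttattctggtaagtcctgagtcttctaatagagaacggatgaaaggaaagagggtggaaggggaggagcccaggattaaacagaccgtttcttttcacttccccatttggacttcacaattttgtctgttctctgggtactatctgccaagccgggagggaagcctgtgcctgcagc
The PU.1-type core stands at −55 relative to the start in Fcgr1, −6 in Fcgr3 and −22 in Fcgr4, each time as TTCCTC, and at −144 in Fcrls as GAGGAA. The window of Fcgr2b holds neither set of letters, and those of Fcer1g and Fcgrt lack them as well. The windows of Fcgr3 overlap and hold the same letters. By gene, 4 of 7 have the PU.1-type core, which is present in 28.3% of the 32851 RefSeq promoter windows. The GAS-type letters stand at −109 in Fcgr1 alone and in 8.30% of all windows. A match describes these letters and is no evidence of binding.

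In gWAT, the genes of the activating arm (Fcgr1, Fcgr3, Fcgr4 and Fcer1g) had lower mean levels in KO than in WT samples, and Fcgr2b, Fcgrt and Fcrls had higher ones. Of the 7 genes, Fcgr1 fell and no other gene passed the test (edgeR quasi-likelihood test, Benjamini-Hochberg adjusted p under 0.05 over 15200 genes), where 5.49% of all genes tested were called and 3.48% were called lower. At an unadjusted p under 0.05 there were 4 lower and 2 higher of the 7, against 12.7% lower and 10.4% higher among all genes. The 3 KO libraries all lay below the 3 WT libraries for 4 genes and all above them for 2, which is the case for 14.5% and 13.3% of all genes tested. All 7 passed the filter on low counts in both tissues.

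**Figure D1:**
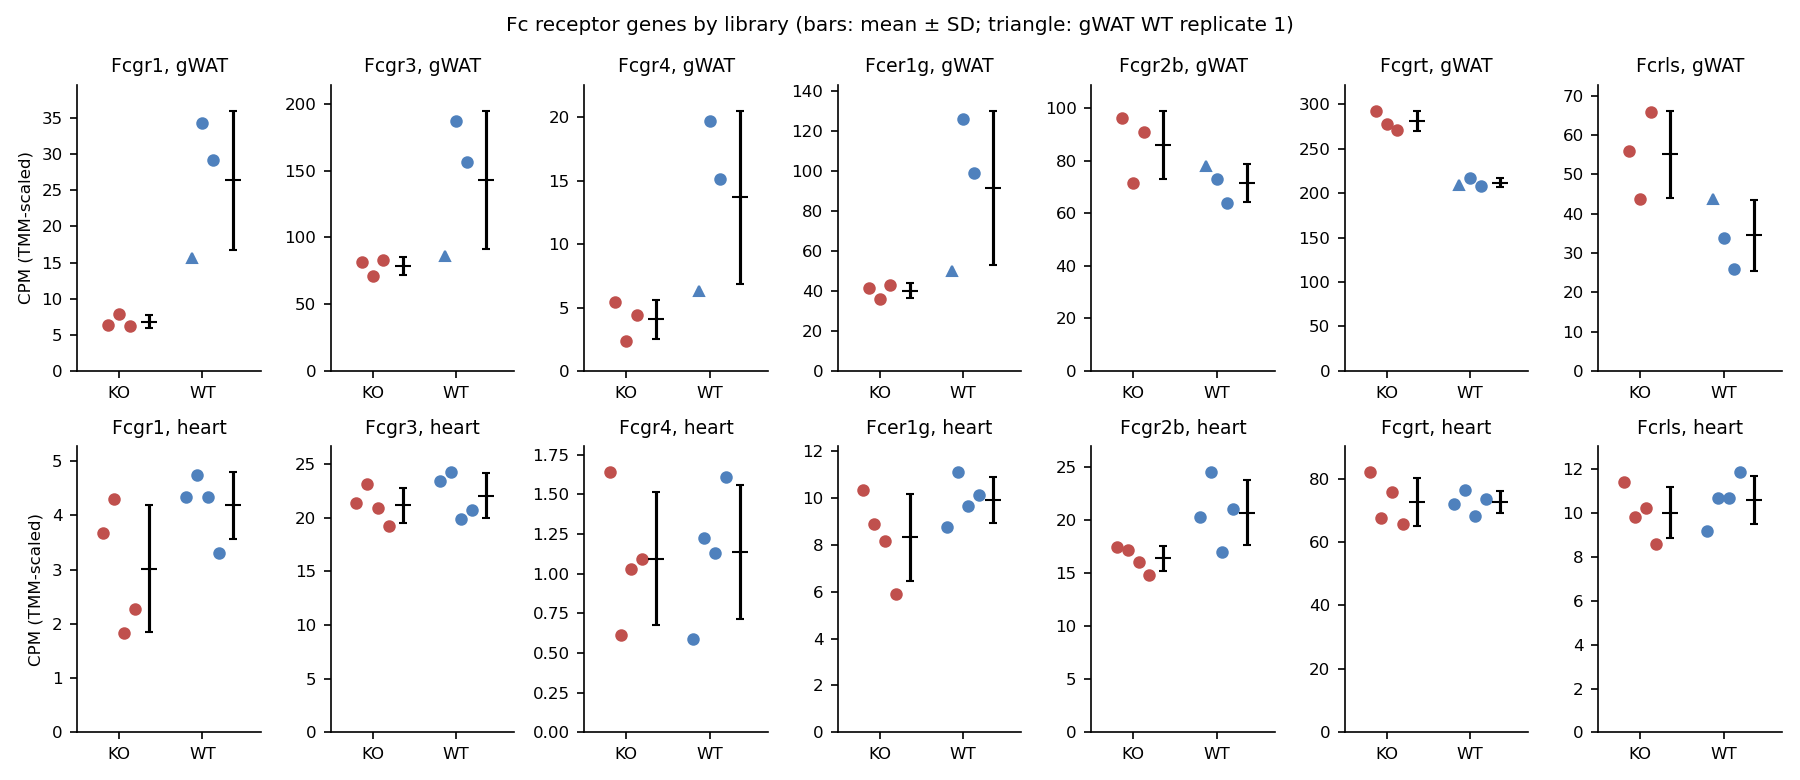
Level of each Fc receptor gene in CPM (TMM-scaled) in every library, gWAT in the upper row and heart in the lower row, with KO left of WT; bars give the mean ± SD and the triangle marks WT gWAT replicate 1. In gWAT the Fcgr1 points of the KO libraries, 6.18 to 7.84 CPM, lie below the WT points, 15.7 to 34.3 CPM, and in heart the points of both genotypes overlap for all 7 genes.

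Fcgr1, the high-affinity receptor that binds monomeric IgG, had 6.34, 7.84 and 6.18 CPM in KO gWAT (replicates 1, 3 and 4), against 15.7, 34.3 and 29.2 CPM in WT gWAT. The 3 KO libraries were close together and lay below all WT libraries, WT replicate 1 included, which was the lowest of the WT group. The means were 6.79 ± 0.912 CPM in KO and 26.4 ± 9.64 CPM in WT (SD, n = 3 each), from 314 and 1257 reads, and the log2 fold change was −1.96 ± 0.28 (SE; adjusted p = 0.0219). Without WT replicate 1 it was −2.22 ± 0.15 (adjusted p = 6.01e-05). The call was lost without WT replicate 4 (adjusted p = 0.119) and without KO replicate 1, 3 or 4 (adjusted p = 0.0976, 0.0837 and 0.0985), with log2 fold changes of −2.07 to −1.88 in these 4 fits. A fit blocked by replicate number lost it as well (−1.90 ± 0.22, adjusted p = 0.0550).

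Fcgr3, the low-affinity activating receptor for immune complexes, had 81.5, 70.8 and 83.3 CPM in KO gWAT, against 86.0, 187 and 156 CPM in WT gWAT. WT replicate 1 was only just above the highest KO library, and the other WT libraries were each above 150 CPM. The log2 fold change of −0.87 ± 0.25 did not pass the test (adjusted p = 0.0835), whereas without WT replicate 1 it was −1.13 ± 0.12 (adjusted p = 0.000480). Fcgr4, a mouse receptor for IgG2a, IgG2c and IgG2b, had 5.41, 2.38 and 4.45 CPM in KO gWAT, against 6.28, 19.7 and 15.2 CPM in WT gWAT. It rests on few reads, 188 over the KO and 656 over the WT libraries. Its log2 fold change was −1.75 ± 0.44 (adjusted p = 0.0565) with all libraries and −2.09 ± 0.29 (adjusted p = 0.00153) without WT replicate 1.

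Fcer1g, the gamma chain that the activating receptors need for surface expression and signalling, followed the same order of libraries as Fcgr3. It had 41.5, 36.1 and 43.0 CPM in KO gWAT, against 50.1, 126 and 99.1 CPM in WT gWAT. All KO libraries lay below all WT libraries, with WT replicate 1 nearest to them. The log2 fold change was −1.19 ± 0.29 (adjusted p = 0.0535), and −1.48 ± 0.13 (adjusted p = 0.000188) without WT replicate 1.

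Fcgr2b, the inhibitory receptor, had 96.2, 71.6 and 90.8 CPM in KO gWAT, against 78.0, 73.1 and 63.8 CPM in WT gWAT. The groups overlapped, since KO replicate 3 lay between the WT libraries. The means were 86.2 ± 12.96 CPM in KO and 71.6 ± 7.19 CPM in WT (SD, n = 3 each), a log2 fold change of 0.27 ± 0.14 that did not pass the test (adjusted p = 0.289), also without WT replicate 1 (0.33 ± 0.14, adjusted p = 0.143). Its neighbours on chromosome 1, Fcgr4 and Fcgr3, thus had log2 fold changes of the opposite sign.

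Fcgrt, the heavy chain of FcRn, had 293, 278 and 271 CPM in KO gWAT, against 209, 217 and 208 CPM in WT gWAT. Relative to their means these were the tightest groups of the 7 genes in gWAT, and WT replicate 1 lay between the other WT libraries. The log2 fold change was 0.41 ± 0.10 (adjusted p = 0.0518), and 0.40 ± 0.10 (adjusted p = 0.0246) without WT replicate 1. Fcrls had 55.9, 43.8 and 65.9 CPM in KO gWAT, against 43.8, 33.9 and 25.8 CPM in WT gWAT. KO replicate 3 and WT replicate 1 were at nearly the same level, so the groups only touch. The log2 fold change of 0.68 ± 0.21 did not pass (adjusted p = 0.101), and without WT replicate 1 it was 0.89 ± 0.19 (adjusted p = 0.0123).

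Leaving out WT replicate 1, 6 of the 7 genes passed, all but Fcgr2b, where 18.7% of all genes tested were called. With DESeq2 on all libraries the same number passed (11.6% of all genes), as in 1 fit of all 14 libraries (10.8%). Without WT replicate 4, or without KO replicate 1, 3 or 4, edgeR called 0 genes of all those tested in gWAT (2374 to 3191 at an unadjusted p under 0.05). Each gWAT call from the fit of all gWAT libraries, for the Fc receptor genes and for the lists, was thus lost in these 4 fits, which have fewer samples. That of the targeted gene Fhl2 was lost as well. With the replicate block, too, edgeR called 0 genes (2922 at an unadjusted p under 0.05). Without WT replicate 3, 0.855% of all genes were called, and in the lists described below 1 activating signalling gene and 1 neutrophil marker were called, both lower. The direction in gWAT was the same in all 14 alternatives for each of the 7 genes.

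**Figure D2:**
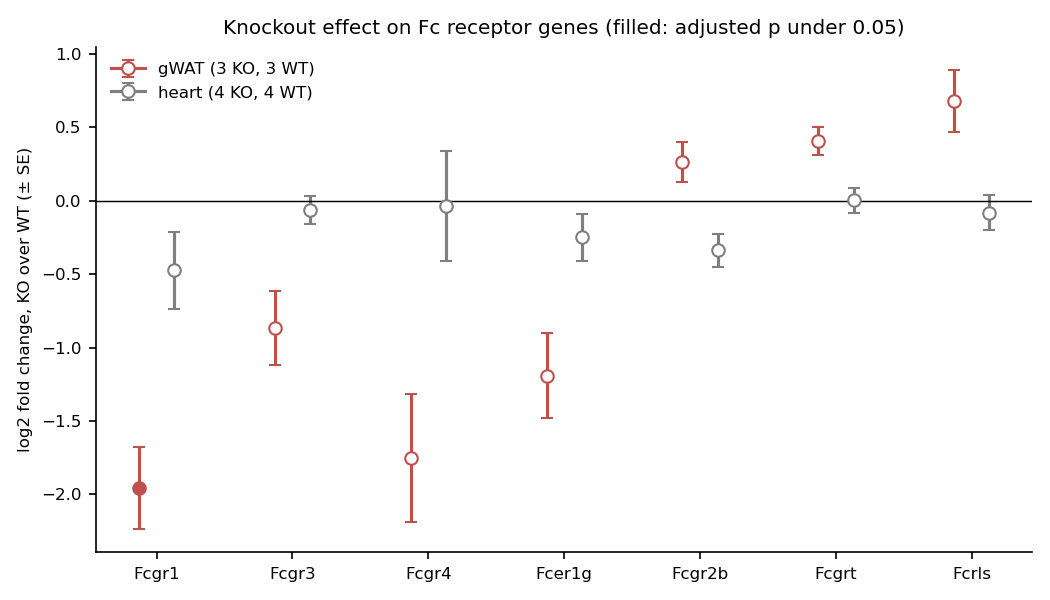
Log2 fold change of KO over WT (± SE) for each Fc receptor gene in gWAT (red, 3 KO and 3 WT libraries) and heart (grey, 4 and 4); a filled point passed the test. Fcgr1 in gWAT, at −1.96, is the only filled point, and the heart values lie between −0.47 and 0.00.

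Set per kilobase of exon, so that levels of different genes can be compared, the 4 Fc gamma receptor genes together were at 58.0 to 70.3 CPM per kb in KO gWAT and at 74.1 to 149 CPM per kb in WT gWAT. Fcgr3 was the main one in each library, with 66.8 to 70.2% of the sum in KO gWAT and 66.9 to 72.4% in WT gWAT, ranges that overlap. Fcgr2b made up 23.6, 21.3 and 22.5% in KO gWAT, against 18.2, 8.44 and 8.87% in WT gWAT, so that every KO library held a larger Fcgr2b share than every WT library. Fcgr1 made up 3.43 to 5.21% in KO gWAT and 8.17 to 9.06% in WT gWAT. The ratio of the activating receptors (Fcgr1, Fcgr3 and Fcgr4 summed) to Fcgr2b was 3.23, 3.70 and 3.44 in KO gWAT, against 4.498, 10.8 and 10.3 in WT gWAT. WT replicate 1 lay nearer to the KO libraries than to the other WT libraries. The shares and ratios combine genes chosen with earlier results known and are given without a test.

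In heart the ratio stood the other way round. It was 4.98, 5.199, 4.89 and 4.98 in KO heart, against 4.45, 3.96, 4.77 and 3.99 in WT heart, where the groups again did not overlap. Fcgr2b made up 16.1 to 16.97% of the sum in KO heart and 17.3 to 20.2% in WT heart. The difference of the mean ratio, KO minus WT, was −5.08 in gWAT and 0.720 in heart, and −3.77 and 0.568 when the longest protein-coding transcript was taken as the length of each gene. Without WT replicate 1 the gWAT difference was −7.11. How many ratios or shares of other genes have groups that do not overlap was not counted. For the CPM of single genes it was 2.41% of all genes tested in heart. In gWAT it was 14.5% with KO lower and 13.3% with KO higher.

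**Figure D3:**
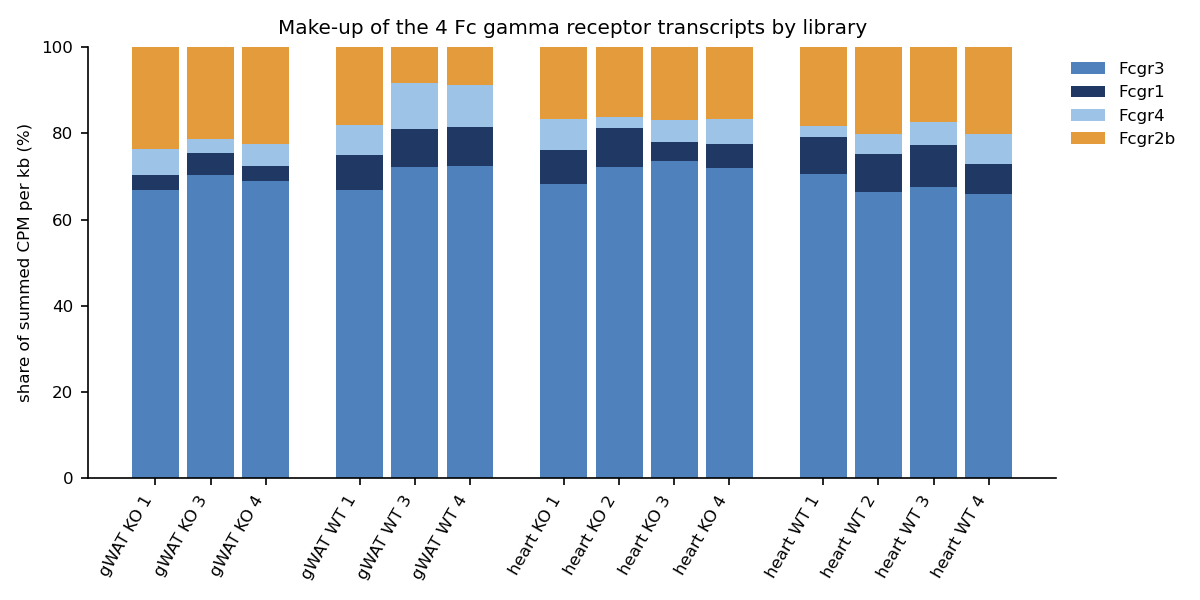
Share of each of the 4 Fc gamma receptor genes in their summed CPM per kb (%), 1 bar per library, KO bars left of WT bars within each tissue. The Fcgr2b part (top) is 21.3 to 23.6% in KO gWAT and 8.44 to 18.2% in WT gWAT, and 16.1 to 16.97% in KO heart against 17.3 to 20.2% in WT heart.

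The order of the 7 genes by level per kilobase differed between the gWAT groups. In KO gWAT, Fcgrt was highest, with 134 ± 5.31 CPM per kb. It was followed by Fcer1g (46.0 ± 4.16) and Fcgr3 (45.2 ± 3.90), whose ranges overlapped, with Fcer1g above Fcgr3 in each gWAT library. Fcrls (23.7 ± 4.74) and Fcgr2b (14.9 ± 2.24) came next, and Fcgr4 (3.25 ± 1.24) and Fcgr1 (2.62 ± 0.352) were lowest with overlapping ranges. In WT gWAT, Fcer1g (105 ± 44.2), Fcgrt (101 ± 2.44) and Fcgr3 (82.5 ± 29.9) were highest and overlapped, and Fcrls (14.8 ± 3.85), Fcgr2b (12.4 ± 1.24), Fcgr4 (10.9 ± 5.44) and Fcgr1 (10.2 ± 3.72) formed an overlapping group below them (all as CPM per kb, mean ± SD, n = 3). The place of Fcgr2b depends on the length assigned to it: by its longest protein-coding transcript it was at 24.3 ± 3.66 CPM per kb in KO and 20.2 ± 2.03 in WT gWAT, level with Fcrls in KO (24.3 ± 4.87) and above it in WT (15.2 ± 3.95).

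In heart, none of the 7 genes passed the test (edgeR adjusted p of 0.9997 each, 14159 genes tested), and 1 gene of all those tested, Fhl2, was called (0.00706%). At an unadjusted p under 0.05 there was 1 of 7, against 3.20% of all genes. With the replicate number as a block there were 2 of 7, Fcgr2b (−0.33 ± 0.10, unadjusted p = 0.00749, adjusted p = 0.592) and Fcgr1 (−0.50 ± 0.22, unadjusted p = 0.0401, adjusted p = 0.885), and 759 of 14159 over all genes. KO and WT libraries overlapped for each of the 7, while 2.41% of all genes had groups that did not overlap. Fcgr2b had the smallest p: it was at 17.5, 17.2, 16.03 and 14.9 CPM in KO heart, against 20.3, 24.6, 17.02 and 21.03 CPM in WT heart, a log2 fold change of −0.34 ± 0.11 (unadjusted p = 0.0136). WT replicate 3 lay among the KO libraries and the other WT libraries lay above all of them. KO was below the WT library of the same number for each of the 4 numbers, which the labels do not give as pairs.

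By mean CPM, Fcgr4 and Fcgr1 were the lowest in heart of the Fc receptor genes studied here, in both genotypes. The activating receptor Fcgr3 was above Fcgr2b. Fcgr1 had 3.67, 4.31, 1.83 and 2.27 CPM in KO heart, against 4.34, 4.74, 4.34 and 3.31 CPM in WT heart (log2 fold change −0.47 ± 0.26). KO replicates 3 and 4 lay below every WT library, and KO was below the WT library of the same number for each of the 4 numbers. Fcgr4 was near the limit of these libraries, with 54 reads over the 4 KO and 56 over the 4 WT libraries, and its log2 fold change of −0.04 ± 0.38 leaves room for a change in either direction. Fcer1g was at 8.31 ± 1.85 CPM in KO and 9.90 ± 0.969 CPM in WT heart (−0.25 ± 0.16), and Fcgr3 at 21.1 ± 1.62 and 22.1 ± 2.101 CPM in KO and WT heart (−0.06 ± 0.09). Fcrls was at 10.02 ± 1.17 CPM in KO and 10.6 ± 1.09 CPM in WT heart (−0.08 ± 0.12; SD over 4 libraries). Fcgrt had 82.1, 67.4, 75.6 and 65.7 CPM in KO heart, against 71.9, 76.5, 68.3 and 73.5 CPM in WT heart, with KO libraries on both sides of the WT range. Its log2 fold change was 0.00 ± 0.08.

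Whether the KO effect differed between the tissues was tested by an interaction contrast in 1 edgeR fit of all 14 libraries. None of the 7 genes passed after adjustment (184 of 16014 genes, 1.15%, were called), with adjusted p between 0.0775 (Fcgr1) and 0.189 (Fcgr4). All 7 had an unadjusted p under 0.05, which 15.2% of all genes had. The gWAT effect minus the heart effect was −1.48 ± 0.39 for Fcgr1, −1.71 ± 0.61 for Fcgr4, −0.94 ± 0.34 for Fcer1g and −0.80 ± 0.26 for Fcgr3, and it was positive for Fcgr2b (0.60 ± 0.18), Fcgrt (0.40 ± 0.12) and Fcrls (0.75 ± 0.25). Without WT gWAT replicate 1, 6 of 7 passed, all but Fcgrt (8.03% of all genes), and without WT gWAT replicate 4 none did, as only 3 genes of all those tested were called.

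All 7 genes were higher in WT gWAT than in WT heart. The contrast, from the same fit, called 36.6% of all genes higher in gWAT. With all libraries on 1 scale, Fcgr3 was at 115 ± 39.9 CPM in WT gWAT and 25.8 ± 2.45 CPM in WT heart (log2 fold change of gWAT over heart 2.16 ± 0.18, adjusted p = 3.66e-08). Fcgr4 had the largest difference of the 7, with 11.04 ± 5.34 CPM in WT gWAT and 1.33 ± 0.493 CPM in WT heart (3.06 ± 0.41, adjusted p = 6.59e-06), and Fcgrt the smallest, with 171 ± 3.78 CPM in WT gWAT and 84.8 ± 3.94 CPM in WT heart (1.02 ± 0.09, adjusted p = 3.61e-08). In these values n is 3 for gWAT and 4 for heart. The other log2 fold changes of gWAT over heart were 2.68 ± 0.23 for Fcer1g, 2.12 ± 0.26 for Fcgr1, 1.26 ± 0.13 for Fcgr2b and 1.18 ± 0.18 for Fcrls. The activating receptors and their gamma chain thus had larger differences than Fcgr2b, Fcrls and Fcgrt, a gap between genes that was not tested. The median over all genes was 0.03, and 0.61 where library totals were used without scaling.

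Within the signalling pathway of the activating receptors, 5 of 24 genes fell in KO gWAT and none rose, where 3.48% of all genes tested were called lower. The median log2 fold change of the 24 was −0.80, against 0.00 over all genes tested. Among those that fell were Lat2 (−2.02 ± 0.35, adjusted p = 0.0268), an adaptor of myeloid and mast cells, the Rac exchange factor Vav3 (−0.998 ± 0.210, adjusted p = 0.0370), the adaptor Blnk (−1.81 ± 0.39, adjusted p = 0.0387) and the adaptor Fyb (−1.62 ± 0.35, adjusted p = 0.0387), which is named after its value was seen. Syk itself did not pass (−0.99, adjusted p = 0.114). Without WT replicate 1, 17 of the 24 were lower and 1 was higher, in a fit that called 18.7% of all genes in either direction. With WT replicate 3 left out 1 was lower, and with KO replicate 1, 3 or 4 or WT replicate 4 left out, or with the replicate block, 0 were. On all gWAT libraries, limma-voom called 1 of the 24 lower and DESeq2 14, where they called 3.14% and 11.6% of all genes.

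Of the 10 genes that restrain these signals, 1 fell and none rose, again beside 3.48% of all genes called lower, with a median of −0.62. Csk, the kinase that holds Src-family kinases inactive, was at 68.5 ± 2.98 CPM in KO and 106 ± 9.38 CPM in WT gWAT (−0.63 ± 0.10, adjusted p = 0.0253). The docking protein Dok3 (−1.30 ± 0.33, adjusted p = 0.0585), the phosphatase Ptpn6 (−1.13 ± 0.31, adjusted p = 0.0748) and Inpp5d, the SHIP1 phosphatase that Fcgr2b recruits (−0.81 ± 0.26, adjusted p = 0.109), did not pass. Fcgr2b and Inpp5d therefore had log2 fold changes of opposite sign, and neither passed. Of the adaptor Tyrobp and the receptors that pair with the Fcer1g chain, 6 of 9 were tested and 2 fell (3.48% of all genes): Tyrobp, with 67.6 ± 4.51 CPM in KO and 187 ± 81.7 CPM in WT gWAT (−1.47 ± 0.31, adjusted p = 0.0370), and the C-type lectin Clec4d (−2.13 ± 0.49, adjusted p = 0.0457, 100 against 452 reads). Pira2 (−1.75, 20 against 70 reads) and Lilra5 (−0.49) did not pass. The calls of both lists were lost without WT replicate 3 and with the replicate block. With limma-voom, 1 of the restraining genes was lower, and 0 of the list of Tyrobp and the Fcer1g partners were.

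Among 8 regulators that are known to act on Fc gamma receptor genes, 7 were tested and 2 fell, beside 3.48% of all genes, and neither did without WT replicate 3 or with the replicate block. C5ar1, the C5a receptor, had 32.5 ± 2.59 CPM in KO and 108 ± 43.3 CPM in WT gWAT (−1.73 ± 0.29, adjusted p = 0.0255), and the transcription factor Irf8 had 28.7 ± 0.842 CPM in KO and 51.8 ± 12.4 CPM in WT (−0.85 ± 0.17, adjusted p = 0.0313). Spi1, which encodes PU.1, was at 28.1 ± 2.33 CPM in KO and 75.2 ± 37.3 CPM in WT gWAT and did not pass (−1.42 ± 0.34, adjusted p = 0.0517), nor did the interferon gamma receptor subunit Ifngr2 (−0.53 ± 0.13, adjusted p = 0.0504). Ifng had 11 reads in KO and 3 in WT gWAT and was not tested.

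The antibody genes, whose products are the ligands, went without a call in gWAT (0 of 8 tested, median 0.85). Ighg3 was at 1.43 ± 0.389 CPM in KO and 0.472 ± 0.246 CPM in WT gWAT (1.59 ± 0.46, adjusted p = 0.0825). Ighg2c, the IgG2 form of C57BL/6 mice, varied widely within the KO group, at 9.04 ± 10.6 CPM against 1.31 ± 0.853 CPM in WT gWAT (adjusted p = 0.145), as did Ighg1, at 7.60 ± 11.6 CPM in KO and 0.505 ± 0.875 CPM in WT gWAT (adjusted p = 0.217). Neither the FcRn light chain B2m, at 2535 ± 376 CPM in KO and 2044 ± 207 CPM in WT gWAT (0.31 ± 0.17, adjusted p = 0.325), nor Alb, the cargo albumin (−0.16 ± 0.14, adjusted p = 0.521), passed. Of 12 other Fc receptor genes, 5 were tested and Fcamr, a receptor for IgA and IgM, rose (2.85 ± 0.52, adjusted p = 0.0285). Of all 15200 genes tested in gWAT, 305 were called higher. The Fcamr call rests on 52 reads in KO and 7 in WT libraries. It was lost without WT replicate 3, with the replicate block and in 1 fit of all 14 libraries. Fcrla (0.42), Fcrl1 (−0.22) and Pigr (0.16) did not pass. The mast cell IgE receptor chains Fcer1a (17 against 44 reads) and Ms4a2 (18 against 25 reads) were too low to test in KO and WT gWAT. In heart, no gene of any of these lists passed. The smallest unadjusted p among them was that of C5ar1 (−0.42 ± 0.16, unadjusted p = 0.0254), and Syk was at −0.16 ± 0.07 and Tyrobp at 0.04 ± 0.18.

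**Figure D4:**
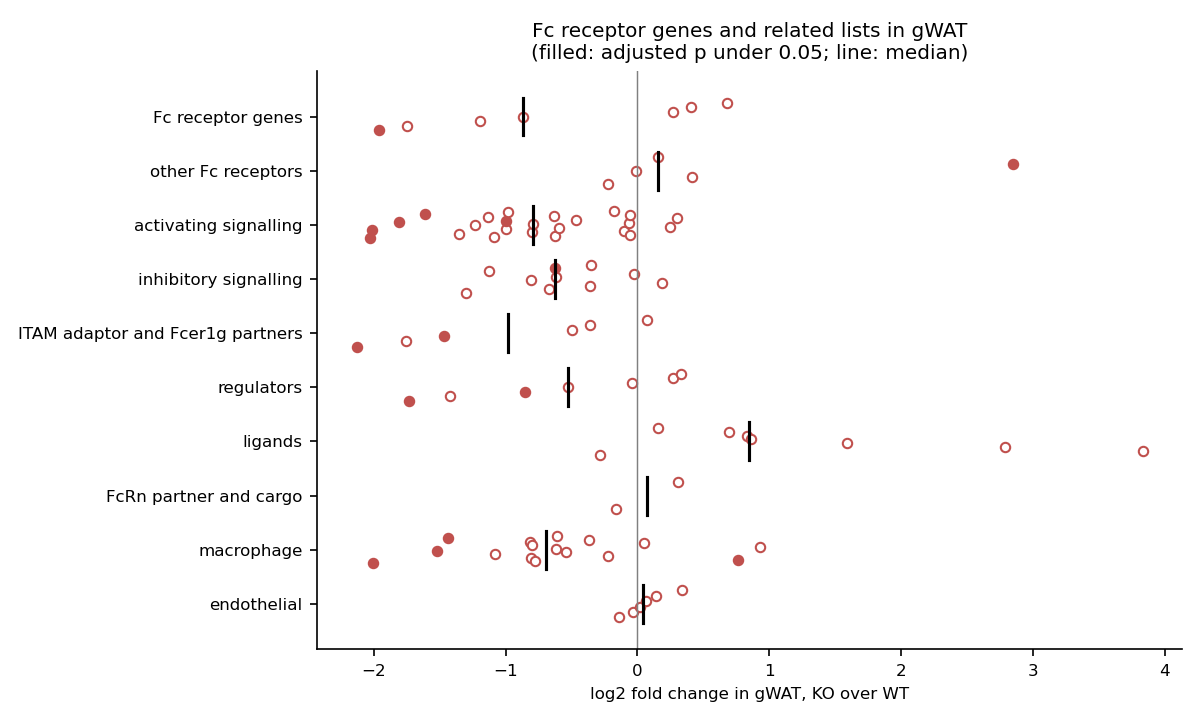
Log2 fold change of KO over WT in gWAT for the genes of each list (1 point per tested gene, filled where adjusted p is under 0.05, vertical line at the list's median). The activating signalling list has its median at −0.80 with 5 of 24 filled points, all to the left, and the endothelial list has its median at 0.04 with none filled.

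Of all 15200 genes tested in gWAT, 3.48% were called lower and 305 genes were called higher. Among 16 macrophage markers, 3 fell in KO gWAT, 1 rose and 12 did not pass. The log2 fold change was negative for 13 and positive for 3 of them. The genes Cd68 (−2.004 ± 0.379), Ctss (−1.44 ± 0.30) and Adgre1 (−1.52 ± 0.35) fell, Lyve1 rose (0.77 ± 0.17), and the median log2 fold change was −0.70 (adjusted p of 0.0296 to 0.0457 for these 4). The summed level of the 16 was 2723 to 3059 CPM in KO gWAT and 3203 to 6580 CPM in WT gWAT, where WT replicate 1 was the lowest at 3203 CPM, and no marker was at 0. Without WT replicate 1, 12 of the 16 were lower and 2 higher, in a fit that called 18.7% of all genes. Without WT replicate 3, or with the replicate block, none of the 16 was called. On all gWAT libraries, limma-voom called 1 lower and 0 higher, and DESeq2 9 lower and 2 higher (3.14% and 11.6% of all genes called). In heart none passed, with sums of 544 to 789 CPM in KO and 686 to 724 CPM in WT heart. The part of macrophage content in the results for the Fc receptor genes was not tested.

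Set against the mean log2 level of these 16 markers in the same library, Fcgr1 stood at −4.17 to −3.66 in KO gWAT and at −2.90 to −2.51 in WT gWAT, so it was lower in KO also on this scale. Fcgr4 (−5.33 to −4.30 in KO, −4.20 to −3.35 in WT) and Fcer1g (−1.47 to −1.39 in KO, −1.23 to −0.67 in WT) were lower as well, by less. Fcgr3 overlapped, at −0.50 to −0.42 in KO and −0.45 to −0.09 in WT gWAT. The mean of the markers was itself lower in KO gWAT, at 6.65 to 6.82, against 6.88 to 7.65 in WT gWAT. A gene of equal CPM in both groups therefore stands higher in KO on this scale. Fcgr2b, at −0.49 to −0.19 in KO and −1.46 to −0.59 in WT gWAT, was higher in KO on this scale although its CPM overlapped, and so were Fcrls (−1.19 to −0.78 in KO, −2.68 to −1.43 in WT) and Fcgrt (1.26 to 1.47 in KO, 0.11 to 0.83 in WT). In heart the groups overlapped on this scale for all 7 genes. The share of all genes with groups apart on this scale was not counted. By CPM in gWAT, 14.5% of all genes tested had all KO libraries below all WT libraries, and 13.3% had them above.

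**Figure D5:**
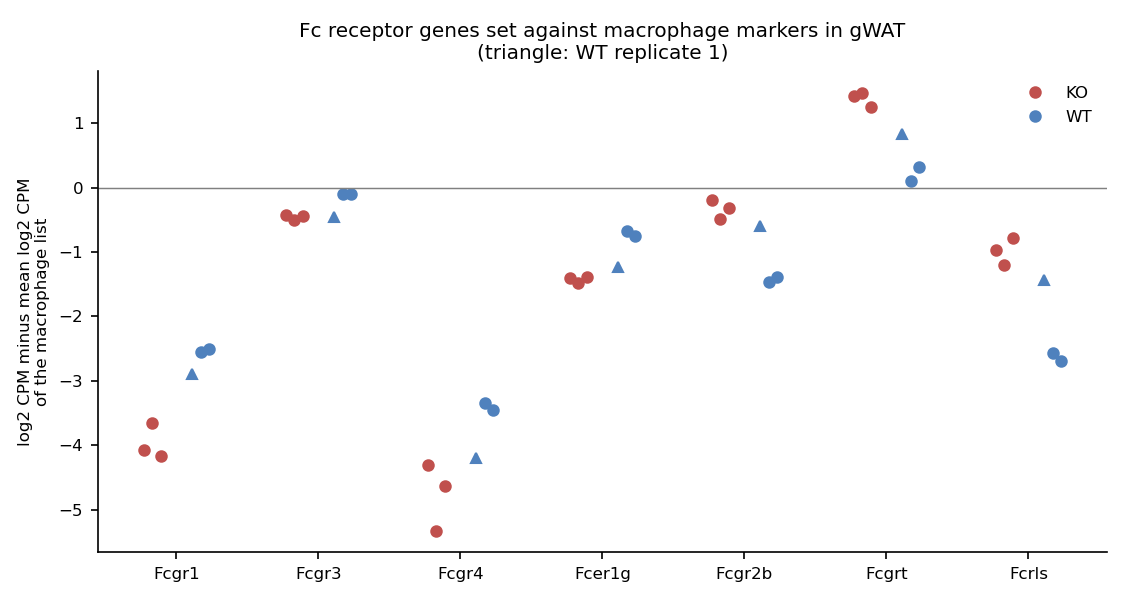
Log2 CPM of each Fc receptor gene minus the mean log2 CPM of the 16 macrophage markers in the same gWAT library, KO left of WT, with WT replicate 1 as a triangle. The mean taken away was itself lower in KO libraries (6.65 to 6.82) than in WT libraries (6.88 to 7.65). The Fcgr1 points of KO libraries (−4.17 to −3.66) lie below those of WT libraries (−2.90 to −2.51), and the Fcgr2b points of KO libraries (−0.49 to −0.19) lie above those of WT libraries (−1.46 to −0.59).

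Other cell types that can carry Fc receptors were measured by shorter marker lists in gWAT. Each call among them was lost without WT replicate 3 and with the replicate block. Of all 15200 genes tested in gWAT, 529 (3.48%) were called lower and 305 were called higher. Of 6 dendritic cell markers, Itgax fell (−2.22 ± 0.43, adjusted p = 0.0306), a call that was lost with limma-voom as well. The list summed to 50.3 to 61.3 CPM in KO and 76.7 to 258 CPM in WT gWAT. Of 6 monocyte markers, Chil3 fell (−1.80 ± 0.39, adjusted p = 0.0389, 48 against 170 reads), though not in 1 fit of all 14 libraries. The list leaned the other way, with log2 fold changes positive for 4 and negative for 2 (median 0.14). At an unadjusted p under 0.05, 3 were higher and 1 was lower, against 10.4% and 12.7% of all genes. Ly6c2 (2.62 ± 0.78, adjusted p = 0.0883) and F13a1 (0.57 ± 0.20, adjusted p = 0.133) did not pass. The sums were 460 to 621 CPM in KO and 368 to 459 CPM in WT gWAT. Of 7 neutrophil markers 3 were tested and Mmp9 rose (1.18 ± 0.24, adjusted p = 0.0334), while S100a8 was at 4.28 ± 0.207 CPM in KO and 13.2 ± 7.96 CPM in WT gWAT (adjusted p = 0.0510) and Ly6g, which defines these cells, was at 0 in both gWAT groups. The neutrophil sums were 11.6 to 14.4 CPM in KO and 17.7 to 28.9 CPM in WT gWAT. No mast cell marker of 7 passed (sums of 31.5 to 39.7 CPM in KO and 35.8 to 63.9 CPM in WT gWAT), and none of 6 each for NK cells (6.96 to 15.7 and 8.01 to 9.16 CPM in KO and WT), B cells (6.70 to 25.5 and 6.97 to 8.07 CPM in KO and WT), T cells (7.41 to 16.4 and 10.9 to 16.2 CPM in KO and WT) and endothelial cells (369 to 650 and 455 to 581 CPM in KO and WT). No marker of these lists other than Ly6g was at 0 in gWAT. No adipocyte marker of 5 passed (Adipoq 0.78 ± 0.20, adjusted p = 0.0587). The adipocyte sums overlapped, at 26737 to 29655 CPM in KO and 20345 to 30049 CPM in WT gWAT, with WT replicate 1 the highest. Of the 5 cardiomyocyte markers Ryr2 fell in gWAT (−1.09 ± 0.22, adjusted p = 0.0323) at sums of 16.7 to 19.2 CPM in KO and 23.3 to 24.6 CPM in WT. In heart no marker of any list passed. The part of these cell types in the results was not tested.

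For each of the 7 genes, the 3 genes with the most similar profile over the 6 gWAT libraries were looked up, by the root mean square difference of log2 CPM after the mean of each gene was taken away (0 means the same profile). Fcgr1 was nearest to Nceh1, a cholesteryl ester hydrolase (0.139), Lcp1, the leukocyte actin-bundling protein L-plastin (0.142), and Msr1, a macrophage scavenger receptor (0.142). These 3 fell in KO gWAT as Fcgr1 did (log2 fold changes of −1.99, −1.89 and −1.69, adjusted p of 0.0253 to 0.0262). Genes picked by a profile that holds the genotype difference share that difference by the choice itself. Fcer1g was nearest to Cerk, a ceramide kinase (0.0463), Wfs1 (0.0511) and Apobr (0.0552), and Fcgr3 to Daglb, a diacylglycerol lipase (0.0396), Nrros (0.0413) and Slamf9 (0.0419). Fcgr4 was nearest to Pik3r5, a regulatory subunit of PI3-kinase gamma (0.179), Lilr4b (0.202) and B4galnt1 (0.207).

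The profiles of the remaining genes were nearest to genes of another kind. Fcgr2b was nearest to Ssh2, a cofilin phosphatase (0.0373), Plcb4 (0.0484) and Lamb1, a laminin chain (0.0531). Fcrls was nearest to Cadm3 (0.107), Strip2 (0.154) and Hcar1, the lactate receptor of adipocytes (0.172), and Fcgrt to Cdc40 (0.0296), Abca2 (0.0325) and Vamp2 (0.0363). Among the 7 genes themselves, Fcgr3 and Fcer1g had the closest profiles (0.1601), followed by Fcgr2b and Fcgrt (0.164), while Fcgr1 and Fcrls were farthest apart (1.41). Because genotype differences are part of the profile, this likeness is a description of 6 libraries.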

How the data were processed

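Messenger RNA of frozen gWAT and heart was sequenced from libraries of the Kapa mRNA HyperPrep kit. The authors deposited 1 table of raw read counts per Ensembl gene for 14 libraries, as whole numbers without normalization. Read trimming, alignment and counting tools named in the submitters' processing notes are Trimmomatic 0.32, HISAT2 2.1.0 and HTSeq 0.11.0, besides FastQC, Picard and limma, with the mm10 build. Which annotation and strand setting the counting used is not given in the sources used here. The 53 IDs without a symbol held 0.0132% of the reads. Levels per kilobase use exon lengths of GENCODE M21 on GRCm38.

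Within a tissue, genes passing edgeR's filterByExpr got TMM scaling and edgeR's quasi-likelihood test of KO against WT. P-values were adjusted by the Benjamini-Hochberg method across all genes tested, with a threshold of 0.05. CPM use the TMM scaling of the tissue. The contrast of gWAT with heart and the interaction come from 1 fit of all 14 libraries. The SE is the log2 fold change divided by the square root of F. Log2 CPM set against markers, and those in the profiles, use a prior count of 2. The coefficient of variation between libraries of a group beyond counting noise, which may be technical, was 0.168 in gWAT and 0.149 in heart. Software was R 4.3.3, edgeR 4.0.16, limma 3.58.1, DESeq2 1.42.0, Python 3.11.15, pandas 2.3.3 and matplotlib 3.10.9. The fits were tested on simulated data.

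The 7 genes and all 18 lists were chosen with earlier results of these data known. Named are all 7 genes, up to 4 genes per list with the smallest unadjusted p in each tissue, the 3 nearest genes of each profile (mean log2 CPM of 3 or more, no predicted genes) and Fhl2. Syk, and Fyb, were named beyond this rule after their values were seen. Other genes within the rule are not reported here. Alternatives were RLE scaling, library totals, no filter, a mean of 10 counts, DESeq2, limma-voom, the replicate number as a block, 1 fit of all 14 libraries and leaving out each library. The longest transcript as length, leaving out libraries for the ratios, and a block across tissues were added after the data were seen. Of 18 library pairs within groups, all differed by more than sampling noise (lowest chi-square over its degrees of freedom 3.53). In heart, deviations of KO and WT libraries with the same number correlated at 0.274 to 0.418 across genes. Libraries of unlike number reached such values too. KO replicate 2 and WT replicate 1 were at 0.504, and KO replicate 4 and WT replicate 3 at 0.346. KO replicates 1 and 2 correlated negatively with WT replicates 3 and 4, and KO replicates 3 and 4 with WT replicates 1 and 2. These values do not show the numbers to be pairs, and the labels do not give pairs. The blocked fit, an alternative, changed no call of the 7 genes in heart. In gWAT the correlations for the same number were −0.237 to 0.0569, and the numbers were not read as pairs either.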

Additional observations from a re-analysis of the deposited data

Results flagged for a closer look

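The ratio of activating receptors to Fcgr2b moved in opposite directions in the 2 tissues. KO minus WT of the mean ratio was −5.08 in gWAT, where all 3 KO libraries (3.23 to 3.70) lay below all 3 WT libraries (4.498 to 10.8), and 0.720 in heart, where all 4 KO libraries (4.89 to 5.199) lay above all 4 WT libraries (3.96 to 4.77). The ratio of Fcgr3 alone to Fcgr2b did the same, with KO minus WT of −3.73 in gWAT (2.82 to 3.30 in KO, 3.68 to 8.55 in WT) and 0.720 in heart (4.08 to 4.48 in KO, 3.28 to 3.90 in WT). These ratios are not independent results. Fcgr3 was the largest part of the activating sum in every library, and both ratios divide by Fcgr2b. The difference between the tissues was not tested for these ratios, and the share of other gene ratios with such groups was not counted. In heart, none of the genes in these ratios was called, and the CPM of each overlapped between the genotypes. Fcgr3 and Fcgr2b share part of their sequence, and the part of this in the ratios was not tested. Within the heart groups, no library of any of the 52 groups of values examined stood apart from the others by Dixon's test, which would mark about 1 in 20 by chance.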

How the results depend on the processing

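Counts of genes called in gWAT, 834 in all, were 1600 with no filter, 1769 with DESeq2, 477 with limma-voom and 1725 in 1 fit of all 14 libraries, and ran from 0 to 2908 when single libraries were left out (2908 without WT replicate 1, 132 without WT replicate 3 and 0 without any of the other 4). With the replicate block none of 15200 was called (2922 at an unadjusted p under 0.05), and Fcgr1 lost its call (−1.90, adjusted p = 0.0550). The Fc receptor genes called, 1 in gWAT, were 5 with no filter, 6 with DESeq2, 6 in 1 fit, 0 with the replicate block and 0 to 6 with single libraries left out. Genes called in heart, 1, were 3 with no filter and 2 with DESeq2. Genes called for the difference between tissues, 184, were 533 with no filter, 669 with DESeq2, 69 with limma-voom and 3 to 1315 with single libraries left out; the Fc receptor genes among them, 0, were 1, 2, 0 and 0 to 6, and the replicate block left 0 of 7 and 179 of all genes. The gWAT against heart calls were 10643 to 11455 with single libraries left out, with 7 of 7 Fc receptor genes each time, also with a block across tissues. In heart, the log2 fold change of Fcgr4 turned to 0.021 with library totals and ran from −0.30 to 0.18 with single libraries left out, and that of Fcgrt turned to −0.0016 with limma-voom and −0.00075 with the replicate block, and ran from −0.060 to 0.048; neither was called in any of them. The cause of these changes was not tested, beyond fewer samples where libraries were left out. With 3 libraries a group in gWAT, leaving out any 1 library other than WT replicate 1 removed most or all calls, and Fcgr4 in heart rests on 7 to 21 reads a library.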
